A study of Mus musculus with 2 samples.

Results

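The genes described here encode the machinery that copies DNA in S phase. They were chosen as every non-control probe on both arrays whose gene name is 1 of 49 listed members, older names included, and all 49 were found, 9 of them under an older name such as Orc1l for Orc1. They were represented by 74 probes, and each member had at least 1 probe well above background on both arrays, so that 49 of the 16018 genes measured on both arrays are replication members. RNA came from RAW 264.7, a transformed mouse macrophage-like cell line that can become osteoclast-like under the cytokine RANKL. The group labelled control, 1 array, was kept at ground level. The group labelled RCCS, 1 array, spent 24 h in a rotary cell culture system, a rotating vessel that models microgravity. Both groups grew in DMEM with 10% serum, and the protocol text gives RANKL at 80 ng/ml for 24 h, with the same wording for both samples, so whether the control cells also received it is not settled by the labels. Each condition has a single array, so no test between them could be made, no difference below has a replicate check, and every error given is a spot error only.

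Before S phase, the origin recognition complex marks replication origins, and CDC6 and CDT1 help it to load the ring of MCM2 to MCM7 proteins, a step called licensing that geminin blocks later in the cycle. CDC45 and the GINS complex then join the ring to form the active helicase. Primase and polymerase alpha start new strands, polymerases delta and epsilon extend them on the sliding clamp PCNA, which the RFC complex loads, and RPA covers the exposed single strands. Many of these genes are transcribed mainly in late G1 and S phase under the E2F factors, so their RNA is often read as a sign of cycling cells. In RNA from a whole culture, fewer cells in S phase and less RNA per cell cannot be told apart.

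The cells carried macrophage markers on both arrays. All 7 macrophage lineage markers, among them the M-CSF receptor gene Csf1r (log2 ratio 0.05), cleared background on both, with summed signals of 775882 on the control and 920041 on the RCCS array. Each marker sum here adds the unscaled signal of a gene's brightest probe. The 75th percentile of the RCCS array was itself higher, 966 against 849 for the control. Within the macrophage list Itgam, an integrin subunit of myeloid cells, had signals of 1135 and 5153 as means of 2 probes. Spi1, which encodes the myeloid factor PU.1, had a log2 ratio of -0.72. Of 5 osteoclast markers, 4 cleared background in the control and 5 in RCCS, where the calcitonin receptor gene Calcr had a signal of 23.6. By log2 ratio the protease gene Ctsk was at 1.22, the fusion gene Dcstamp at -1.62, Itgb3 at -0.40 and Acp5 at 0.06, so these markers did not share a direction. Fibroblast markers had summed signals of 183 and 594, with 2 of 5 above background in the control, 3 of 5 in RCCS, and Lum in neither. Dcn alone gave 462 of the RCCS sum (15.2 in the control), while Col3a1 cleared background in the control only (43.6 and 11.4). Lymphocyte markers had 4 of 5 above background in each, with sums of 373 and 414 and Ms4a1 in neither. Of the 5 neutrophil markers present on the array, 2 cleared background in the control and 3 in RCCS; their sums were 258 and 12574, of which S100a8 alone gave 12449 in RCCS, while S100a9 and Elane cleared it in neither. Their part in the results below was not tested.

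Replication genes were lower on the RCCS array as a group. Of the 49 members, 48 (Orc3, at 0.00, among them) had a log2 ratio (RCCS minus control, each array scaled to the 75th percentile of its own probes) below 0, where 61.8% of all measured genes did. At least 2-fold lower were 13 members, or 26.5%, against 3.76% of all measured genes. No member (0 of 49) was at least 2-fold higher, against 3.88% of all genes. Below -0.5 lay 40 members, against 19.6% of all genes. The median log2 ratio of the members was -0.89, which is 1.85-fold lower, against -0.13 for all measured genes, a distance of -0.76. Scaled on the spike-in probes, 0 of the 13 stayed past 2-fold, against 1.63% of all genes, because that scaling moves every ratio up by 0.31. The members' median then was -0.58, and the distance to all genes was the same.

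The members lay close together. Their quartiles were -1.00 and -0.62, and the 2-fold threshold cuts through the group. Just past it were Uhrf1 at -1.00 and Mcm3 at -1.02, and just short of it Rfc3 at -0.99 and Gins2 at -0.98, differences smaller than the spot error. Among all measured genes, 22 members were in the lowest 5% and 35 in the lowest 10%. For 41 members the 95% spot interval lay wholly below 0, against 27.5% of all measured genes, and for 38 it lay wholly below the median of all genes, against 18.8%. The typical half-width of that interval, 0.40, comes from an error that the scanner software assigns, while 77 repeated probes with a signal of at least 1000 had a median SD between spots of 0.03.

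**Figure D1:**
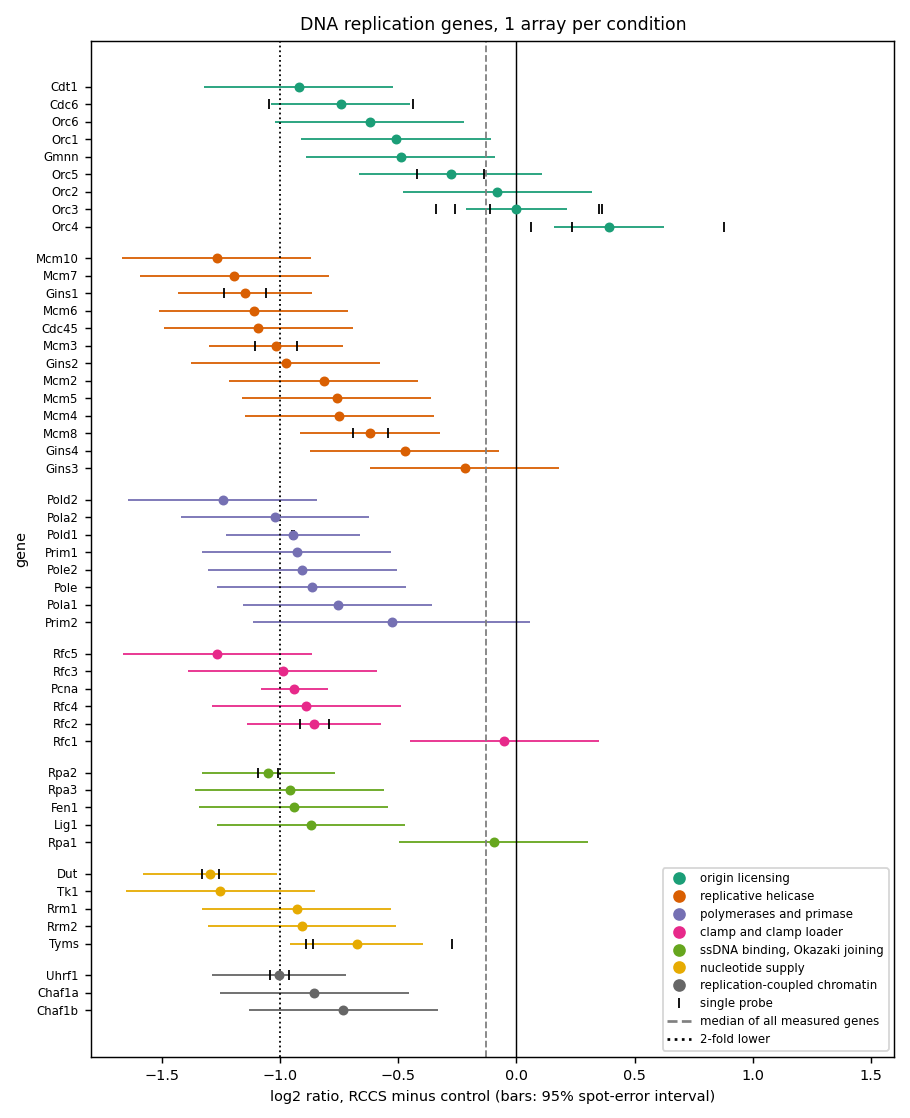
Log2 ratio, RCCS minus control, on the x axis for each of the 49 replication genes on the y axis, grouped by complex; points are gene values, bars the 95% spot-error interval, black ticks single probes of genes with several, the dashed line the median of all measured genes and the dotted line 2-fold lower. Most genes lie nearer to the dotted line than to 0. Orc2, Orc3, Orc4, Orc5, Gins3, Rfc1 and Rpa1 lie nearest to 0, and Gins4 (-0.47) and Gmnn (-0.49) lie about midway.

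The promoters of the members were searched for letters of the E2F type. Many replication genes are known to be under the E2F factors, so an excess could be foreseen whatever the arrays showed. The window from 250 bases before to 50 bases after the gene's start, from RefSeq on GRCm38.p6, was matched for 41 of 49 members. An E2F-type core (the letters TTCCCGC, the letters TTGGCGC, the letters TTCGCGC or the letters TTGCCGC, on either strand, where overlapping matches count separately) stood in the windows of 27 of 41 members (65.9%). It stood in those of 18.4% of 9994 measured genes with a window, and in 9.57% of all 32851 windows. The letters CCAAT stood in 26 of the 41 (63.4%) against 43.0% of measured genes, and TTTGAA, the CHR element found in promoters of many late cell cycle genes, in 5 (12.2%) against 14.9%.

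The E2F-type letters did not sort the members by their ratio. Members with a match had a median log2 ratio of -0.91 and ran from -1.20 to 0.39, and the 14 without ran from -1.30 to -0.08 with a median of -0.98. The windows below show both kinds, as the 120 bases that end just before the gene's start, 5′ to 3′ on the gene's strand, with E2F-type cores in capitals. The first 4 belong to genes with a match and a log2 ratio near or below -0.93.
Mcm6 (chr1:128359706-128359825, minus strand): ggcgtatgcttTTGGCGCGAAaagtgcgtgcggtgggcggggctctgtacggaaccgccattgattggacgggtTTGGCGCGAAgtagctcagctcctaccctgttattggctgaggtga
Rpa2 (chr4:132768240-132768359, plus strand): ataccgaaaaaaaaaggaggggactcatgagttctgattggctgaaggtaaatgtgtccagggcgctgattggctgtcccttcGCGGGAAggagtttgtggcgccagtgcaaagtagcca
Rrm1 (chr7:102441575-102441694, plus strand): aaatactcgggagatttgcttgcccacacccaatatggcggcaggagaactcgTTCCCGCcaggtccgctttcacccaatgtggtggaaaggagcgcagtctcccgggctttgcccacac
Prim1 (chr10:128015095-128015214, plus strand): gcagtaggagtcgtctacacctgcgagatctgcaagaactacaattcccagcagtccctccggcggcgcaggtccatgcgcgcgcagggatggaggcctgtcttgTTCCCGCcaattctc

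In Mcm6 each capital stretch holds overlapping matches, so that its 120 bases hold 4. The next 3 windows belong to genes whose ratio lay near that of all genes. Orc3 and Gins3 have a match there, and Rpa1 has none in the whole window.
Orc3 (chr4:34614943-34615062, minus strand): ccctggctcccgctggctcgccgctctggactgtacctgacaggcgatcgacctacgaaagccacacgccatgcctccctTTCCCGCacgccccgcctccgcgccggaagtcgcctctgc
Gins3 (chr8:95633439-95633558, plus strand): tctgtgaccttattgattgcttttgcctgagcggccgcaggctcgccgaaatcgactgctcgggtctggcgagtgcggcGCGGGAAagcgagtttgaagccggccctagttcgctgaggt
Rpa1 (chr11:75348384-75348503, minus strand): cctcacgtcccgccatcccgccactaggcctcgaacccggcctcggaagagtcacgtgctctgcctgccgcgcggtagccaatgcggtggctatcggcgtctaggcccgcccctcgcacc

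Tk1 and Rfc5 were among the lowest members, at -1.25 and -1.27, and have no match in their windows.
Tk1 (chr11:117826015-117826134, minus strand): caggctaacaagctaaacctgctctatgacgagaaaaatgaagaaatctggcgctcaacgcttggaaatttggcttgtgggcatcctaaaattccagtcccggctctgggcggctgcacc
Rfc5 (chr5:117389024-117389143, minus strand): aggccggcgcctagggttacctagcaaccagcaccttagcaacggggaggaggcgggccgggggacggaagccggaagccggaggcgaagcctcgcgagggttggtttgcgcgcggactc

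A match is a run of letters and not a measured binding site, and the absence of these letters from a window of this length says nothing about the factor.

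**Figure D2:**
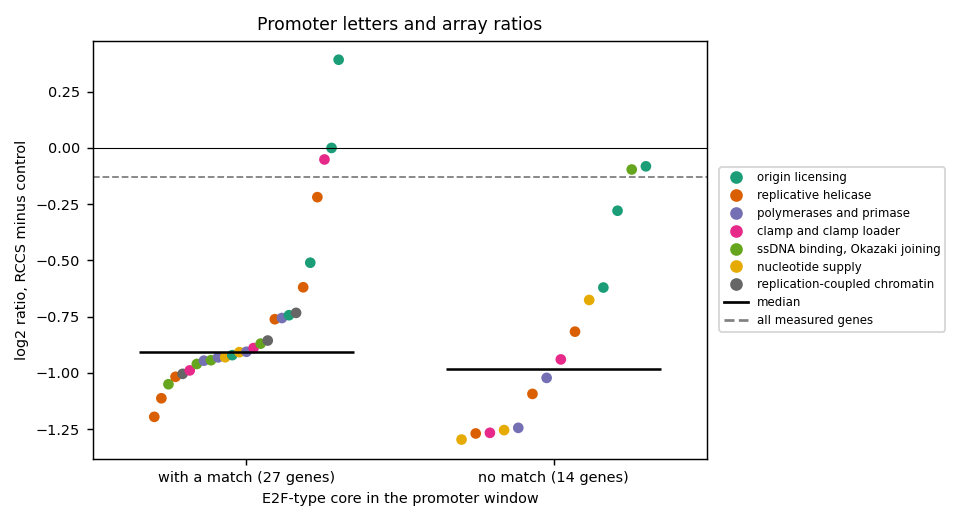
Log2 ratio, RCCS minus control, on the y axis for the 41 members with a RefSeq promoter window, split on the x axis by an E2F-type core in the window; points are genes coloured by complex, black bars medians of -0.91 with a match and -0.98 without. The sets overlap over most of their range.

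Origin licensing genes had a median of -0.49, the nearest to 0 of the 7 complexes, and 0 of 9 were at least 2-fold lower. Over all measured genes 3.76% were, so a count of 0 among 9 does not set licensing apart from them. The same share stands beside the counts of the other complexes below, each of few genes. The 2 loading factors had the lowest ratios within the set. Cdt1, which brings MCM rings to origins, had processed signals of 20646 (control) and 12397 (RCCS), a log2 ratio of -0.92 (95% spot interval -1.32 to -0.52). Cdc6, the ATPase that works with it, was at -0.74 over 2 probes, at -1.05 for the brighter (3089 and 1700) and -0.44 for the dimmer (123 and 103). Gmnn, which encodes geminin, the inhibitor of CDT1, went from 18641 to 15091 and was at -0.49, so that the inhibitor and the factor it blocks were both lower.

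The 6 subunit genes of the origin recognition complex split. Orc1, whose protein is degraded and remade through the cycle in mammalian cells, was at -0.51 (713 and 569), and Orc6, the smallest subunit, was at -0.62 (13417 and 9922). Orc2, Orc3, Orc4 and Orc5, which form the stable core of the complex, averaged 0.01, which is 0.57 above the mean of Orc1 and Orc6 (95% spot interval 0.25 to 0.90; 0.48 to 0.61 over 14 processing settings). A difference between genes of the same arrays does not depend on a single scaling factor, and this one was computed after the values were seen.

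Within the core, Orc2 had signals of 2530 and 2719, a log2 ratio of -0.08. Orc5 was at -0.28, with its brighter probe at -0.14 (3349 and 3463). Orc4 was the single member above 0, at 0.39, and the values of its 3 measured probes were 0.24 (2440 and 3268), 0.06 (1125 and 1333) and 0.88 (192 and 402). The highest of these is the dimmest, and the brightest probe gives 0.24.

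Orc3 shows how a gene value can hide its probes. The mean of its 5 probes was at 0, but the 3 probes with a RefSeq accession of Orc3 were at -0.34 (3089 and 2775), -0.26 (2400 and 2278) and -0.11 (185 and 194), a mean of -0.24. The other 2 carry the accession of a different cDNA and were at 0.36 (128 and 187) and 0.35 (34.8 and 50.4). Their coordinates in the file run in the opposite order to those of the RefSeq probes, and over 18374 probes with a RefSeq accession that order matched the reference strand of the gene in 99.1%. By that order these 2 probes lie on the strand opposite to Orc3, and whether their signals come from the Orc3 transcript was not tested.

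The helicase genes had the lowest median of the 7 complexes, -0.98, and 6 of 13 were at least 2-fold lower. The 6 genes of the MCM ring, whose proteins assemble in equal numbers, had a mean log2 ratio of -0.94 with an SD of 0.19 over genes, which is 1.92-fold lower. Mcm7 went from 35291 to 17521 (-1.20), Mcm6 from 27310 to 14357 (-1.11) and Mcm3 from 14988 to 8609 as the mean of 2 probes (-1.02, with the probes at -1.11 and -0.93). Mcm2 (5218 and 3368, -0.82), Mcm5 (16469 and 11046, -0.76) and Mcm4 (15659 and 10591, -0.75) were lower by less. The 95% spot intervals of all 6 overlap, so no order among them is given by these arrays.

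Outside the ring, Mcm10, which helps the helicase to start and to hold polymerase alpha, went from 8156 to 3847, a log2 ratio of -1.27 (2.41-fold lower, 95% spot interval -1.67 to -0.87). Cdc45 went from 5223 to 2783 (-1.09). Mcm8, a relative of the ring proteins with a role in recombination repair, was at -0.62, with probes at -0.69 and -0.55. The position of Mcm10, lowest of the helicase genes here, is within the spot error of Mcm7, Gins1, Mcm6 and Cdc45.

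The GINS complex, a ring of 4 different subunits, did not have even ratios. Gins1 was at -1.15 (probes at -1.24 and -1.06) and Gins2, found under a RIKEN clone name, was at -0.98 (8889 and 5132). Gins4 was at -0.47 (6468 and 5302), and Gins3 was at -0.22, with signals of 2277 and 2225. Gins3 lay 0.85 above the mean of Gins1 and Gins2 (95% spot interval 0.38 to 1.31) and Gins4 lay 0.59 above it (0.12 to 1.06). Gins3 and Gins4 were read by 1 probe each, and both differences were computed after the values were seen. Gins3 turned above 0 when the arrays were scaled on the spike-in probes (0.09).

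The polymerase and primase genes were lower with little spread, at a median of -0.92, and 2 of 8 were at least 2-fold lower. Pold2, the second subunit of polymerase delta, went from 7412 to 3557 (-1.24), and its catalytic partner Pold1 had probes at -0.95 and -0.94. For polymerase epsilon, the catalytic Pole was at -0.87 (3202 and 1998) and the accessory Pole2 at -0.91 (2214 and 1343). For polymerase alpha, Pola1 was at -0.76 (2324 and 1564) and Pola2 at -1.02 (4546 and 2545), and the primase catalytic gene Prim1 was at -0.93 (7514 and 4481).

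Prim2, the large primase subunit, had a probe near background, with signals of 49.6 and 39.1, and its log2 ratio of -0.53 has a 95% spot interval of -1.11 to 0.06. It is the member for which these arrays say least. Some members have further probes left out as too near background, and averaging these in put Pola2 at -0.50.

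The sliding clamp and its loader had a median of -0.92, and 1 of 6 was at least 2-fold lower. The Pcna probe was printed 10 times on each array, which makes Pcna the best measured member. Its signal lay between 84426 and 91780 (median 87911) on the control array and between 47592 and 54100 (median 51993) on the RCCS array. The 2 sets of spots did not overlap, and the spot by spot log2 ratios averaged -0.95 with an SD of 0.04 and a range of -1.01 to -0.89 (10 spots; -0.94 over the 8 spots with no outlier call). Those spots are technical repeats of 1 RNA sample per condition.

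Of the 5 subunits of the clamp loader, 4 were lower and the large subunit was not. Rfc5 went from 18818 to 8893 (-1.27), Rfc3 from 4998 to 2863 (-0.99), and Rfc4 from 9647 to 5920 (-0.89), and Rfc2 was at -0.86 with probes at -0.92 and -0.79. Rfc1, the subunit that sets the replication loader apart from related loaders built on the same 4 small subunits, had signals of 3383 and 3713 and a log2 ratio of -0.05. Rfc1 lay 0.95 above the mean of the other 4 (95% spot interval 0.51 to 1.39; 0.84 to 0.95 over 13 settings). Rfc1 was read by 1 probe, so no other probe checks its value. The difference was computed after the values were seen, which its interval does not allow for.

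The same division of a complex was seen in RPA, the trimer that covers single-stranded DNA. Rpa2 was at -1.05 over 2 probes at -1.09 and -1.01, and Rpa3 went from 6448 to 3768 (-0.96). Rpa1, the large subunit that carries most of the DNA contacts, had signals of 3416 and 3635 and was at -0.10. It lay 0.91 above the mean of Rpa2 and Rpa3 (95% spot interval 0.44 to 1.38). Rpa1 was likewise read by 1 probe, and its difference was computed after the values were seen. Fen1, the nuclease that trims the flap of Okazaki fragments, was at -0.94 (15172 and 8968), and Lig1, the ligase that seals them, at -0.87 (7482 and 4655).

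The 7 members Orc2, Orc3, Orc4, Orc5, Gins3, Rfc1 and Rpa1 had control signals between 1167 and 3416, a range of brightness that also holds Pola1, Pole2 and Pole, which were at -0.76 or below. For Orc3, Orc4 and Orc5 that signal is a mean over bright and dim probes, down to 34.8 for Orc3 and 38.8 for Orc5. Brightness was therefore not matched for them. Above a control signal of 1000, where 47 members lie, the members' median was -0.91 against -0.24 for 6791 genes. That cut was made on the control array alone, which favours genes lower on the RCCS array, so it gives no separate support. In that range 46 of 47 members were below 0 against 71.2% of genes, and 38 of 47 below -0.5 against 24.6%. There 13 were at least 2-fold lower against 4.42% of genes, and 0 at least 2-fold higher against 1.84%. The position of these 7 relative to 0 depends on scaling. Apart from Orc4, which was above 0 in all 14 settings, each was below 0 as reported and above 0 in at least 1 setting, among them the spike-in scaling. The other 42 members were below 0 in every one of the 14 settings that measured them.

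**Figure D3:**
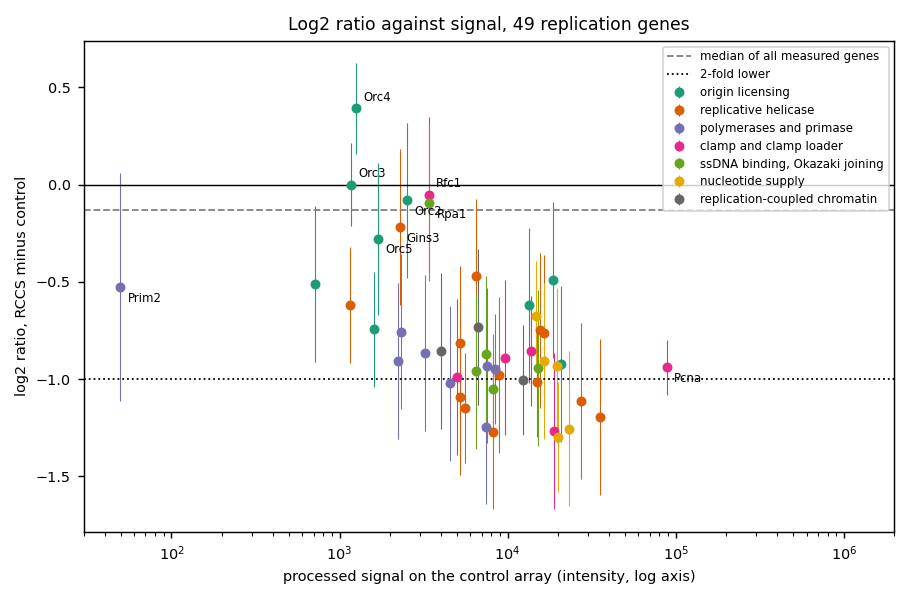
Log2 ratio, RCCS minus control, on the y axis against the processed signal on the control array on a log x axis for the 49 members, coloured by complex with 95% spot-error bars. The labelled Orc2, Orc3, Orc4, Orc5, Gins3, Rfc1 and Rpa1 have control signals, as means over a gene's measured probes, between 1167 and 3416, where Pola1, Pole and Pole2 lie at -0.76 or below.

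Genes that supply nucleotides had a median of -0.93, and 2 of 5 were at least 2-fold lower. Dut, which encodes the enzyme that clears dUTP and makes dUMP for thymidylate synthesis, had the lowest log2 ratio of all 49 members, -1.30 (2.46-fold lower, 95% spot interval -1.58 to -1.01), with probes going from 25578 to 11552 and from 14520 to 6889. Tk1, the S-phase thymidine kinase, went from 23302 to 11105 (-1.25). Rrm1 (19645 and 11719, -0.93) and Rrm2 (16439 and 9962, -0.91), the large and small subunits of ribonucleotide reductase, differed by far less than 0.40, the half-width of either interval. Tyms, the thymidylate synthase, was at -0.68 as the mean of 3 probes, but its 2 bright probes were at -0.89 and -0.86, and the third, with signals of 43.5 and 40.9, was at -0.27.

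The 3 genes that rebuild chromatin and its methylation behind the fork were lower as well, with a median of -0.86. Uhrf1, which recognises half-methylated DNA and brings in the maintenance methyltransferase, was at -1.00, with probes at -1.04 and -0.97. Chaf1a and Chaf1b, subunits of the histone chaperone CAF-1, were at -0.86 (4003 and 2514) and -0.73 (6643 and 4544).

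Other genes of DNA replication, listed apart from the 49, went the same way by less. Of 43 listed, 41 were measured, 39 were below 0, 7 at least 2-fold lower and 1 at least 2-fold higher, with a median of -0.61. Over all measured genes these shares were 61.8%, 3.76% and 3.88%. The lowest were Dck, the deoxycytidine kinase (-1.46), Shmt1, which feeds thymidylate synthesis (-1.37), Dscc1, of an alternative clamp loader built on the small RFC subunits (-1.28), and Top2a, a topoisomerase (-1.28, with probes at -1.86 and -0.70). Pold4, the smallest subunit of polymerase delta, was the gene at least 2-fold higher, with signals of 4037 and 9798 (log2 ratio 1.09), and Top1, another topoisomerase, was also above 0 (0.41).

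The listed E2F and RB factors, which control many of these genes, had a median nearer to 0. Of 19 E2F and RB factors, 17 were below 0, against 61.8% of all measured genes, and that median was -0.43. At least 2-fold lower was 1 of them (5.26%), near the 3.76% of all measured genes. The shares of 61.8% and 3.76% also stand beside the counts of the lists that follow. Mybl2, itself an E2F target, was at -1.35, and Foxm1 at -0.99; E2f1 was at -0.81 (2197 and 1460) and E2f8 at -0.75. The 2 factors above 0 were Rb1 (0.38), the retinoblastoma gene, and Rbl2 (0.39), its relative of resting cells. Among 15 measured G1 cyclin, kinase and inhibitor genes the median was -0.71, with 13 below 0 and 2 at least 2-fold lower. Cdk6 was at -1.44 (probes from -1.86 to -0.95), Skp2 at -1.29, Cdc25a at -0.91 and Ccna2 at -0.90. Above 0 were Ccnd2 (0.37, with dim signals of 71.5 and 109) and the inhibitor gene Cdkn1a (0.21). The 28 mitotic genes had a median of -0.90, with all 28 below 0 and 7 at least 2-fold lower, among them Anln (-1.27), Kif2c (-1.26), Plk1 (-1.24) and Aurkb (-1.18). The replication median of -0.89 lay beside the mitotic one, and no test of a difference between these lists was made.

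**Figure D4:**
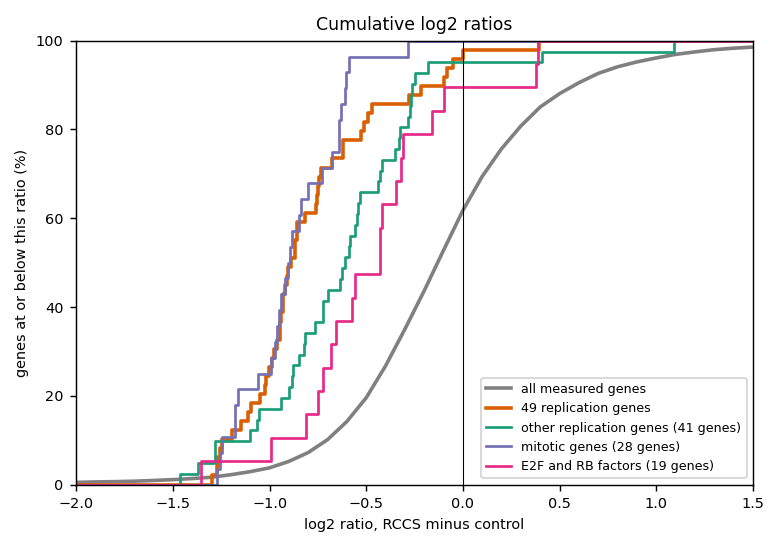
Percentage of genes on the y axis with a log2 ratio (RCCS minus control) at or below the value on the x axis, for all 16018 measured genes, the 49 replication members, 41 other replication genes, 28 mitotic genes and 19 E2F and RB factors. The replication and mitotic curves run close together, with medians of -0.89 and -0.90, to the left of all genes.

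The place of origin licensing held over the processing settings. Licensing had the median nearest to 0 in each of the 14 settings, between -0.49 and -0.18, and all 7 complexes stayed below 0 in all of them. The helicase median ran from -0.98 to -0.67, and it was not the lowest where a gene was taken by its brightest probe or by its RefSeq probes alone. The other 5 complexes had medians between -0.94 and -0.86 as reported. Their order changed under several settings, among them quantile, loess and normexp processing, no filter on dim probes, and a signal minimum of 100.

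**Figure D5:**
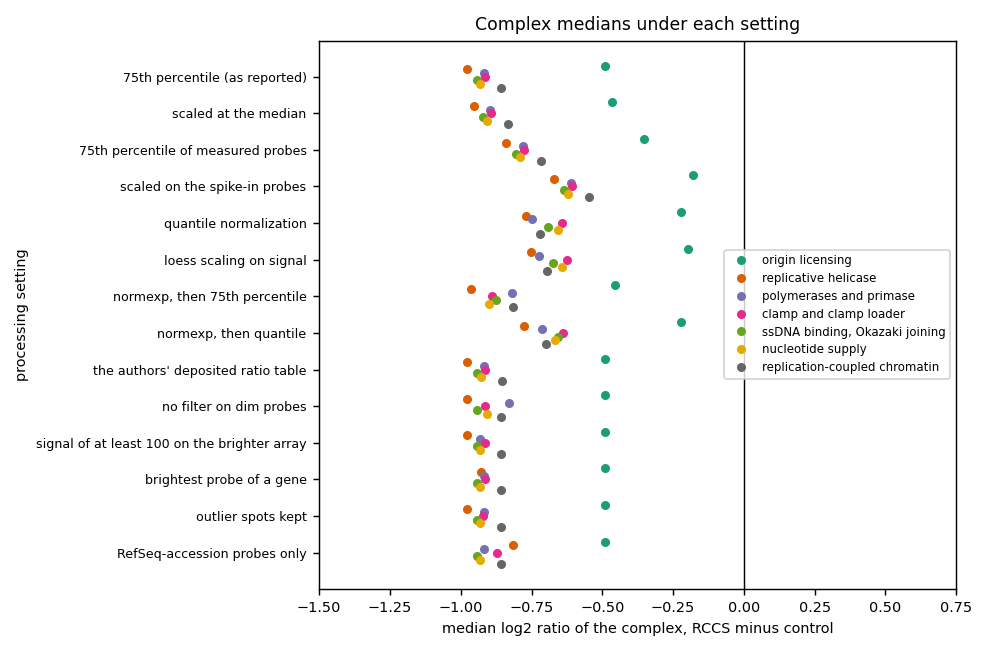
Median log2 ratio, RCCS minus control, of each of the 7 complexes on the x axis under each of 14 processing settings on the y axis; points of 1 setting are offset for legibility. Licensing lies nearest to 0 in each setting, and spike-in scaling puts each complex nearest to 0.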

How the data were processed

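Total RNA of 2 samples, 1 control and 1 RCCS, was hybridised to 1-colour Agilent mouse arrays on the same slide. The deposited intensity values are processed signals from Agilent Feature Extraction 9.5.3.1, with background subtracted and surface trend removed, per the file headers. A second deposited table holds a ratio, which served as an alternative. Up to rounding it is that signal divided by a median of 849 (control) and 964 (RCCS). Its median value was 0.06 and its lowest 0.01 on each array, so rounding alters dim probes. Prim2 was at -0.58 there and at -0.53 as reported.

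Spots with an outlier call were dropped and spots of a probe averaged. The log2 of the deposited signals was taken relative to each array's 75th percentile over 41171 probes (849 and 966). A probe entered when 50% or more of its spots cleared background by the scanner software's call on each array, and a gene took the mean of its probes. Probes were named by RefSeq accession (22950 matched, GRCm38.p6 table), otherwise by the file's name or its newer form. Spot errors combine the software's errors of both arrays. The number of arrays limits the precision.

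The members, lists and motifs were chosen with earlier results of these data known. All members are named, and up to 4 genes of each related list with the largest absolute ratio. Pold4, Top1, Rb1, Rbl2, Ccnd2, Cdkn1a, the markers and the differences within complexes were picked after their values were seen. Alternatives used limma 3.58.1 (normexp) and statsmodels 0.14.6 (loess). The gene values were tested on simulated data made from the control array alone. The planted changes were larger than that of any member, so that check says nothing about members near 2-fold.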

Additional observations from a re-analysis of the deposited data

How the results depend on the processing

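The median of the 49 members ran from -0.91 to -0.58 over 13 alternatives, all below 0, and relative to all genes of the same setting from -0.78 to -0.61. The number of members at least 2-fold lower, 13 as reported beside 3.76% of all genes, depended on scaling, since the members lie close to the threshold. It was 7 with the 75th percentile of measured probes (2.6% of all genes) and 4 with quantile normalization (3.1%). Loess scaling gave 3 (2.68%), normexp with quantile normalization 3 (1.55%), and the spike-in probes 0 (1.63%). With thresholds of 1.5-fold and 3-fold and the scaling as reported, the number was 38 and 0. Near those thresholds, 14.2% of all genes lay at or below a log2 ratio of -0.6 and 0.92% at or below -1.6. The 0 is thus close to the share of all genes. Members below 0 ran from 42 to 48. No member was past 2-fold in every setting. Of 632 single-gene values under the alternatives, 20 lay outside the gene's 95% spot interval. The alternative with RefSeq probes alone was chosen after seeing the data. Scaled on spike-ins, 82.1% of calls over all genes were higher in place of 50.8%, with 66.7% for the 75th percentile of measured probes, 64.0% for loess and 62.6% for normexp with quantile normalization. Over all genes, 603 were at least 2-fold lower as reported, against 261 on the spike-in probes, 346 and 248 with normexp (75th percentile and quantile), and 1804 with no filter on dim probes, of 28773 genes. No paired analysis was possible because each group holds 1 array. Signals near background limit Prim2 and the dim probes of Orc3, Orc5 and Tyms.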
